A study of Mus musculus with 6 samples.

Results

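Purine breakdown and nucleotide receptor genes were examined in sorted mouse group 2 innate lymphoid cells (ILC2s), lymphocytes that respond to tissue damage with type 2 cytokines. The set holds 10 genes, chosen by symbol for their role with earlier results of these data known. They are the ectonucleotidases Entpd1 and Nt5e, the purine-degrading enzymes Ada, Pnp and Xdh, the adenosine receptor Adora2a, and the nucleotide receptors P2rx4, P2rx7, P2ry1 and P2ry14. All 10 are among the 27179 Entrez gene IDs of the deposited count table, and 9 passed the low-count filter that left 12967 genes for testing. P2rx7 did not pass. RNA was sequenced from 3 samples sorted as Chat positive and 3 samples sorted as Chat negative, where Chat encodes the enzyme that makes acetylcholine. Both groups are labelled only as ILC2s with a gate. The sources used here give no strain, age, tissue, stimulus, way of detecting Chat or number of cells. They also do not say that samples came from separate animals, so p-values cover only the variation among these 6 samples, and that variation may be technical.

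ATP that leaves stressed or dying cells is a danger signal. The cell-surface enzyme CD39 (Entpd1) strips it to AMP, and CD73 (Nt5e) turns AMP into adenosine, which acts on its own G protein-coupled receptors. Inside cells and in tissue fluid, adenosine deaminase (Ada) makes inosine, purine nucleoside phosphorylase (Pnp) releases hypoxanthine, and xanthine dehydrogenase (Xdh) oxidises hypoxanthine to uric acid. ATP itself opens the P2X ion channels, while the P2Y receptors are G protein-coupled and read ATP, ADP, UTP, UDP or UDP-sugars.

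The Chat positive libraries held 37154269, 50361306 and 40280664 counts and the Chat negative libraries 42503612, 43097771 and 44061509. Chat stood at 188, 169 and 204 CPM (counts scaled to a common library size with TMM factors) in Chat positive samples 1, 2 and 3, against 16.5, 26.5 and 17.5 CPM in Chat negative samples 1, 2 and 3. The 9 listed ILC2 markers, such as Gata3 and Il7r, were detected in every library and summed to between 15130 and 22760 CPM. The largest parts of this sum were Il5, at 5730 to 13760 CPM, and Il2ra, at 3618 to 5775 CPM. Thy1 was lowest, at 5.19 to 19.6 CPM. The gates overlapped for all of the 9 except Il13, which was higher in Chat positive samples. Over all tested genes 8.14% showed no overlap. Markers of other cells were partly present. Of the 6 mast cell and basophil markers Cpa3, Mcpt4 and Ms4a2 had no count, while Kit stood at 153.2 to 276.0 CPM and Mcpt8 at 24.9 to 203 CPM. Cdh5 of endothelium had no count, and Csf1r, Flt3 and Krt8 had at most 5 counts in a library. The adhesion gene Pecam1, known from endothelium and some leukocytes, the epithelial adhesion gene Epcam, and the B cell receptor chain Cd79b were detected in all 6 libraries.

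No member changed between the gates at an adjusted p under 0.05 in edgeR's quasi-likelihood test. Over all genes 1 of 12967 passed, or 0.00771%, and that gene was Chat. Of the 9 tested members 1, Xdh, showed no overlap between the gates, against 8.14% of all tested genes, and 3.61% of all tested genes were lower in Chat positive samples without overlap. The median log2 change of the 9 was -0.091, with 2 above 0 and 7 below, against 0.0044 over all tested genes. By share of the sum of squares of log2 CPM, the sample number that the labels give within each gate separated the libraries most for 7 of the 9. The number makes 3 groups and the gate 2, so the number takes a larger share even without any pattern. For Adora2a, 1 of the 7, the number held 40.7%, the gate 21.9% and the rest 37.4%. Across the gates the number 2 samples resembled each other, while numbers 1 and 3 could not be told apart. For 7 members both number 2 libraries lay outside the range of the other 4 libraries, as they did for 49.7% of all tested genes.

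**Figure D1:**
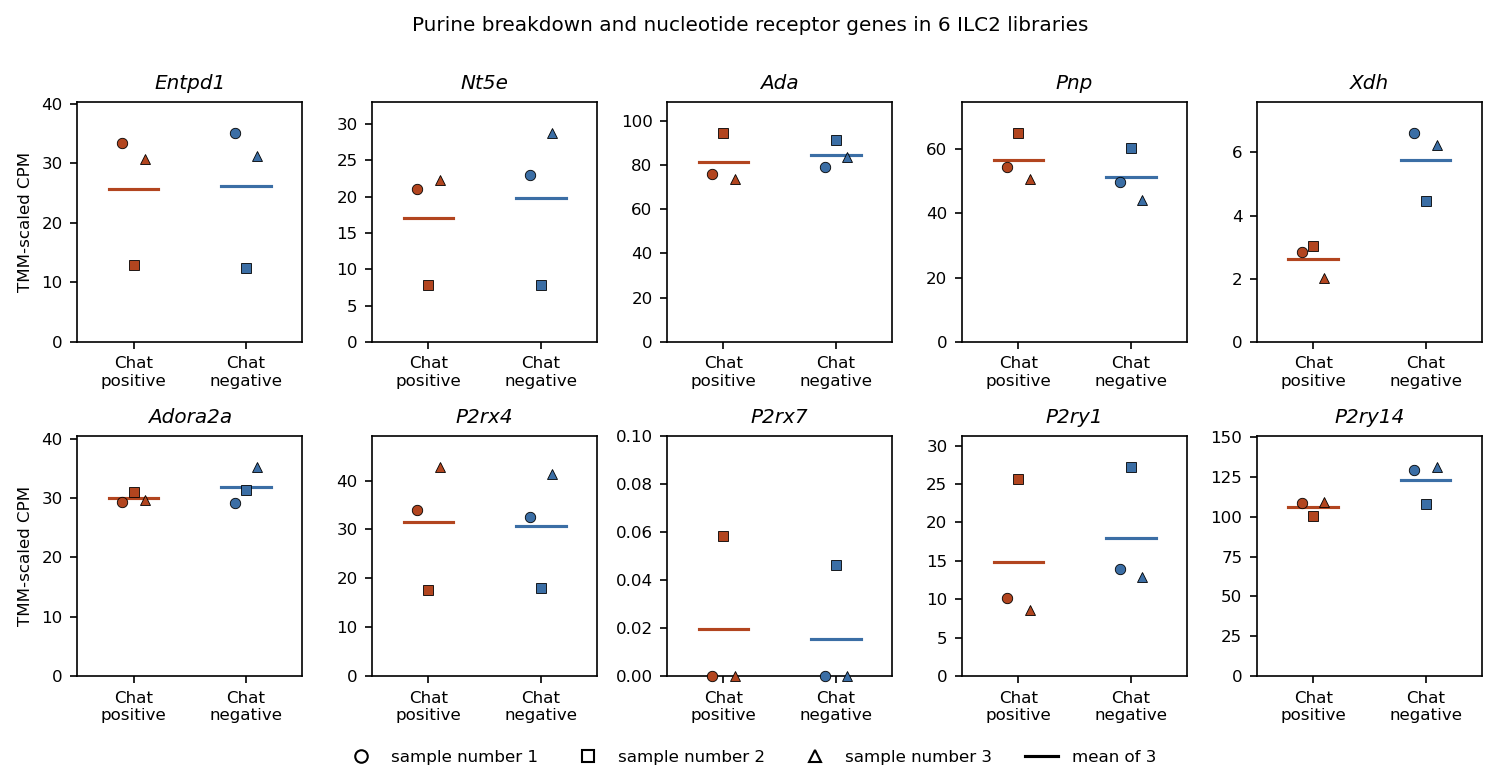
Each panel plots 1 gene, with TMM-scaled CPM on the vertical axis from 0 and the gates on the horizontal axis, Chat positive on the left. Symbols mark the sample number and lines the mean of 3 libraries; Xdh is lower in every Chat positive library, while Entpd1, Nt5e and P2rx4 are lowest and P2ry1 highest in both number 2 libraries.

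Levels differed widely among the members. On the scale of CPM per kilobase of transcript, averaged over the 6 libraries, Ada stood at 49.1 and P2ry14 at 46.2, and the ranges of this pair overlapped. Pnp followed at 18.4, with a range of 15.0 to 22.1 that overlapped neither neighbour in the order. It did overlap the wider range of P2rx4, which reached 15.8. Adora2a at 11.9, P2rx4 at 11.5, Entpd1 at 6.16, Nt5e at 4.62 and P2ry1 at 4.22 formed a middle group in which each range overlapped that of the next gene. Xdh stood at 0.913 and P2rx7 at 0.0035, each apart from its neighbours. The most abundant members per length were thus an enzyme that removes adenosine and a receptor for UDP-glucose. These levels rest on the longest coding transcript that the annotation links to RefSeq, and the transcripts used by these cells were not measured here.

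Xdh, the enzyme that forms uric acid, differed most between the gates among the members (Entrez 22436, mm10 chromosome 17, 73883895 to 73950397, 66503 bases). It had 105, 156 and 81 counts in Chat positive samples 1, 2 and 3, against 280, 194 and 269 counts in Chat negative samples 1, 2 and 3. As CPM it stood at 2.84, 3.03 and 2.01 in Chat positive samples, against 6.62, 4.47 and 6.23 in Chat negative samples. Every Chat positive library lay below every Chat negative library. The log2 change was -1.13 (SE 0.27, 95% interval -1.78 to -0.49), a level 0.456-fold that of Chat negative cells. Its adjusted p was 1.00 in edgeR over all genes, so it did not pass. Its unadjusted p was 0.0041, at rank 12 of 12967, where 2.43% of all tested genes had an unadjusted p under 0.05. Because the members were chosen with earlier results of these data known, its p and rank are not those of a gene picked in advance. Within sample numbers 1, 2 and 3 the log2 difference was -1.21, -0.56 and -1.61. In bulk samples like these, fewer cells with Xdh RNA and less Xdh RNA per cell cannot be told apart.

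Xdh was also the member whose spread followed the gate most. Of the sum of squares of its log2 CPM over the 6 libraries, 83.5% lay between the gates and 4.10% between sample numbers. Over all tested genes the median shares were 9.72% for the gate and 67.1% for the number. Xdh is also known from secretory and lining epithelium, and the 5 epithelial markers summed to 34.4 to 59.2 CPM in Chat positive libraries, against 37.4 to 89.6 CPM in Chat negative libraries. Epcam made up most of this sum, at 55.2, 31.5 and 52.7 CPM in Chat positive samples, against 82.4, 34.9 and 87.0 CPM in Chat negative samples, while the keratin Krt8 had at most 2 counts in a library. Of the 4 tested epithelial markers, Cdh1 was also lower in Chat positive cells on average (log2 change -1.61), and Krt18 and Krt19 were higher on average (0.28 and 1.07), with none past the test. The 5 ILC1 and NK cell markers summed to 0.944 to 2.41 CPM in Chat positive libraries, against 2.56 to 4.51 CPM in Chat negative libraries. Most of that sum was Klrk1, while Eomes, Klrb1c and Ncr1 reached no more than 6 counts. Tbx21 had 15 counts in Chat negative sample 3 and at most 6 in any other library. The part of these cells in the Xdh difference was not tested.

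The genes whose log2 CPM ran most like Xdh over the 6 libraries were Phf8, Pogk and Tjp1, with Pearson's r of 0.984, 0.981 and 0.981. These are the highest over all other tested genes that have a symbol and describe these 6 libraries only.

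The surface enzymes that make adenosine did not separate the gates. Entpd1 (Entrez 12495, chromosome 19, 40612366 to 40741602), which encodes CD39, stood at 33.5, 12.97 and 30.8 CPM in Chat positive samples 1, 2 and 3, against 35.1, 12.5 and 31.2 CPM in Chat negative samples 1, 2 and 3. Sample 2 of each gate was low and the other samples were alike across the gates. Its log2 change was -0.030 (SE 0.47), and the 95% interval of -1.14 to 1.08 still holds a change of more than 2-fold either way. Nt5e (Entrez 23959, chromosome 9, 88327609 to 88372089), which encodes CD73, stood at 21.1, 7.85 and 22.2 CPM in Chat positive samples, against 23.0, 7.77 and 28.8 CPM in Chat negative samples. Sample 2 of each gate was again the lowest. Its log2 change was -0.22 (SE 0.55, 95% interval -1.52 to 1.07, adjusted p = 1.00 in edgeR).

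Entpd1 and Nt5e moved together across libraries, with Pearson's r of 0.971 over the 6 libraries and 0.976 after each gate's mean was removed and both values share the low number 2 libraries. Of the sum of squares, the sample number held 99.8% for Entpd1 and 97.8% for Nt5e, while the gate held 0.0067% for Entpd1 and 1.13% for Nt5e. On average the number 2 libraries held 12.7 CPM of Entpd1, against 32.7 CPM in the libraries of numbers 1 and 3. Nt5e averaged 7.81 CPM in the number 2 libraries, against 23.8 CPM in those of numbers 1 and 3. Among markers of other cells, Cd68 of macrophages was low in both number 2 libraries, at 21.3, 6.86 and 19.0 CPM in Chat positive samples, against 19.8, 6.99 and 20.5 CPM in Chat negative samples. The 8 macrophage and dendritic cell markers summed to 9.09 to 10.9 CPM in the number 2 libraries and to 20.3 to 24.4 CPM in the other 4, but Csf1r and Flt3 had at most 5 counts and Lyz2 was also near 0. Cx3cr1, of the same list, ran the other way, at 0.621 and 2.74 CPM in the number 2 libraries of Chat positive and Chat negative cells, against 0.124 to 0.473 CPM in the other 4. The basophil protease gene Mcpt8 was low in number 2, at 124, 24.9 and 147 CPM in Chat positive samples, against 134, 30.8 and 203 CPM in Chat negative samples, and Kit was highest there. The 7 T cell markers summed to 21.5 to 26.9 CPM in the number 2 libraries and to 36.97 to 49.0 CPM in the other 4, led by Cd3g, with Cd8a at most at 3 counts. Trac ran the other way, at 2.00 and 1.29 CPM in the number 2 libraries of Chat positive and Chat negative cells, against 0.449 to 1.17 CPM in the other 4, and Cd4 had 50 counts in Chat positive sample 2 and at most 6 elsewhere. Which cells or conditions differ between the numbers is not given in the labels, and the part of other cells was not tested.

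The other nucleotidases at the surface and in the lumen of secretory compartments gave no call either. Of 21 listed ectoenzymes, 13 were tested, Entpd1 and Nt5e included, and none passed. Of the 13, 3 lay above 0 and 10 below, and the median log2 change was -0.15. The autotaxin gene Enpp2, better known for making lysophosphatidic acid, stood at 16.9 ± 1.66 CPM in Chat positive and 12.9 ± 2.63 CPM in Chat negative cells (SD, n = 3 each). The acid phosphatase Acpp, which can hydrolyse AMP, stood at 53.5 ± 4.14 CPM in Chat positive and 62.5 ± 6.05 CPM in Chat negative cells. The NAD-consuming ectoenzyme Cd38 stood at 5.12 ± 2.12 CPM in Chat positive and 7.33 ± 1.90 CPM in Chat negative cells. The most abundant were Entpd5, an endoplasmic reticulum enzyme, at 77.2 ± 4.60 CPM in Chat positive and 86.8 ± 11.8 CPM in Chat negative cells, and Acpp. The gates overlapped for each of the 13.

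Ada and Pnp, which act on adenosine and then inosine, were well expressed and close between the gates. Ada (Entrez 11486, chromosome 2, 163726571 to 163750239), whose loss causes lymphocyte deficiency in people, stood at 75.9, 94.5 and 73.7 CPM in Chat positive samples, against 78.8, 91.2 and 83.4 CPM in Chat negative samples. The number 2 libraries were the highest of each gate and the gates overlapped. Its log2 change was -0.054 (SE 0.13), with a 95% interval of -0.36 to 0.26. Pnp (Entrez 18950, chromosome 14, 50944303 to 50953412) stood at 54.4, 65.0 and 50.5 CPM in Chat positive samples, against 49.8, 60.2 and 44.0 CPM in Chat negative samples. It was higher in the Chat positive library of each of the 3 sample numbers, by 0.13, 0.11 and 0.20 on the log2 scale, although the gates overlapped. The fitted log2 change of Pnp was 0.14 (SE 0.16, 95% interval -0.24 to 0.52). Pnp2, a neighbouring copy of Pnp, had 11 to 25 counts in a library, and counting may have split or dropped reads that fit both copies. The annotation also gives a same-strand transcript, Gm49342, that shares 718 of the 3979 exon bases of Pnp. An opposite-strand transcript, Gm38316, shares 356 of the exon bases of Pnp.

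Around these enzymes, 15 of 21 listed purine catabolism genes were tested, Ada, Pnp and Xdh included, and none passed. Of the 15, 8 lay above 0 and 7 below, with a median log2 change of 0.032. The AMP deaminase Ampd2 stood at 79.4 ± 4.67 CPM in Chat positive and 72.3 ± 5.03 CPM in Chat negative cells (SD, n = 3 each). The most abundant gene of the list was the nucleotidase Nt5c3, at 555.9 ± 58.3 CPM in Chat positive and 528.5 ± 61.0 CPM in Chat negative cells. Its place in the list does not show that it degrades purines in these cells, and its substrates were not measured. The nucleotidase Nt5c followed, at 120.4 ± 9.17 CPM in Chat positive and 110.5 ± 12.7 CPM in Chat negative cells. Uox, the gene for urate oxidase, which degrades uric acid in mice, had at most 2 counts in a library. Of 14 listed salvage and kinase genes 12 were tested and none passed, with 9 above 0 and a median of 0.058. For 3 of the 12 the gates held no common range, beside 8.14% of all tested genes. The mitochondrial kinases Ak4 and Ak3 were lower and the guanylate kinase Guk1 higher in Chat positive cells in this sense, with Ak4 at 54.7 ± 2.22 CPM in Chat positive and 62.9 ± 1.495 CPM in Chat negative cells. Guk1 stood at 72.7 ± 4.61 CPM in Chat positive and 64.8 ± 1.46 CPM in Chat negative cells. The 16 tested genes of de novo purine synthesis, the pathway that builds purines from small precursors, had a median of -0.017 and none passed. The smallest p among the 16 was that of Gmpr2, a GMP reductase that returns GMP to IMP and was listed with them, at 54.8 ± 3.95 CPM in Chat positive and 45.1 ± 5.65 CPM in Chat negative cells.

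**Figure D2:**
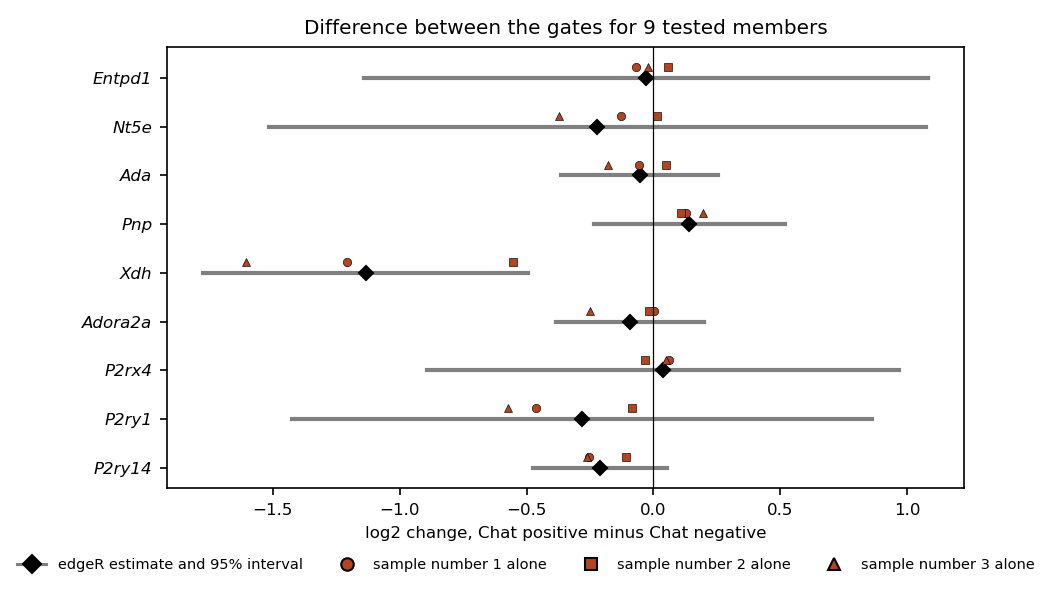
The horizontal axis gives the log2 change, Chat positive minus Chat negative, for the 9 tested members. Diamonds and bars are the edgeR estimate and its 95% interval, and small symbols the difference within each sample number; the interval of Xdh runs from -1.78 to -0.49 and the other 8 include 0.

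Among the receptors for adenosine, Adora2a (Entrez 11540, chromosome 10, 75316877 to 75334792), whose receptor raises cyclic AMP and dampens lymphocytes, was the most even member across libraries. It stood at 29.3, 31.0 and 29.6 CPM in Chat positive samples, against 29.2, 31.4 and 35.2 CPM in Chat negative samples. The coefficient of variation over the 6 libraries was 7.37%, and the gates overlapped. Its log2 change was -0.091 (SE 0.12, 95% interval -0.38 to 0.20). Of the other receptors, Adora2b stood at 13.1 ± 0.538 CPM in Chat positive and 11.6 ± 0.772 CPM in Chat negative cells (SD, n = 3 each), with no overlap between the gates, and did not pass. Adora3 stood at 5.62 ± 3.28 CPM in Chat positive and 8.47 ± 2.38 CPM in Chat negative cells. Adora1 was not counted in any of the 6 libraries. By counting error, a level of up to 3 counts, between 0.0583 and 0.0811 CPM, could be missed in any single library. The limit for the 6 libraries together is lower and was not computed.

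Of the ATP-gated channels, P2rx4 was expressed and P2rx7 was almost uncounted. P2rx4 (Entrez 18438, chromosome 5, 122707518 to 122729739), a channel of high ATP sensitivity, stood at 34.0, 17.7 and 42.8 CPM in Chat positive samples, against 32.5, 18.1 and 41.3 CPM in Chat negative samples. The values followed the sample number closely in both gates, and the number held 99.8% of the sum of squares. Its log2 change was 0.038 (SE 0.39, 95% interval -0.89 to 0.97). P2rx7 (Entrez 18439, chromosome 5, 122643927 to 122692336), the channel that opens a large pore at high ATP and drives inflammasome activation in macrophages, lies next to P2rx4. It had 0, 3 and 0 counts in Chat positive samples, against 0, 2 and 0 counts in Chat negative samples. The 5 counts among 257459131 in all make 0.0194 CPM, with an exact Poisson upper bound of 0.0453 CPM (95% interval, counting error only). The number 2 library of each gate held them all. In the annotation 119 of the 5970 exon bases of P2rx7 are shared with another gene, a microRNA.

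P2rx1 was the other channel at the level of P2rx4. It stood at 40.4, 10.1 and 35.1 CPM in Chat positive samples, against 41.0, 6.78 and 45.1 CPM in Chat negative samples. Sample 2 of each gate was low, as for P2rx4. P2rx5 had 9, 24 and 16 counts in Chat positive samples, against 7, 8 and 1 counts in Chat negative samples. The gates did not overlap for P2rx5, which did not pass. P2rx2, P2rx3 and P2rx6 had at most 4 counts in a library. Of the 7 P2X genes 3 were tested.

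The set holds 2 P2Y receptors, P2ry14 and P2ry1. P2ry14 (Entrez 140795, chromosome 3, 59114623 to 59153492), the receptor for UDP-glucose, had the highest CPM of the members, at 108, 100.4 and 109 in Chat positive samples, against 129, 108 and 131 in Chat negative samples. It was lower in the Chat positive library of each of the 3 sample numbers, by log2 differences of -0.25, -0.11 and -0.26, and the gates overlapped by the number 2 library of Chat negative cells. The fitted log2 change was -0.21 (SE 0.11, 95% interval -0.48 to 0.052, adjusted p = 1.00 in edgeR). Its sum of squares lay to 53.7% between the gates and to 40.1% between the numbers. P2ry14 lies within the span of Med12l on the opposite strand and shares no exon base with it. Med12l stood at 11.1 ± 3.82 CPM in Chat positive and 12.01 ± 3.84 CPM in Chat negative cells (SD, n = 3 each).

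P2ry1 (Entrez 18441, chromosome 3, 61002785 to 61008982), an ADP receptor known from platelets, stood at 10.1, 25.7 and 8.64 CPM in Chat positive samples, against 13.97, 27.2 and 12.9 CPM in Chat negative samples. Sample 2 of each gate was the highest, the reverse of Entpd1, Nt5e and P2rx4. Within numbers 1, 2 and 3 the log2 difference was -0.46, -0.085 and -0.57, so each Chat positive library was the lower of its pair. The fitted log2 change was -0.28 (SE 0.48, 95% interval -1.42 to 0.86). An annotated antisense transcript, Gm37035, shares 992 of the 4291 exon bases of P2ry1, and its reads cannot be told apart from those of P2ry1 where strand was not used in counting.

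**Figure D3:**
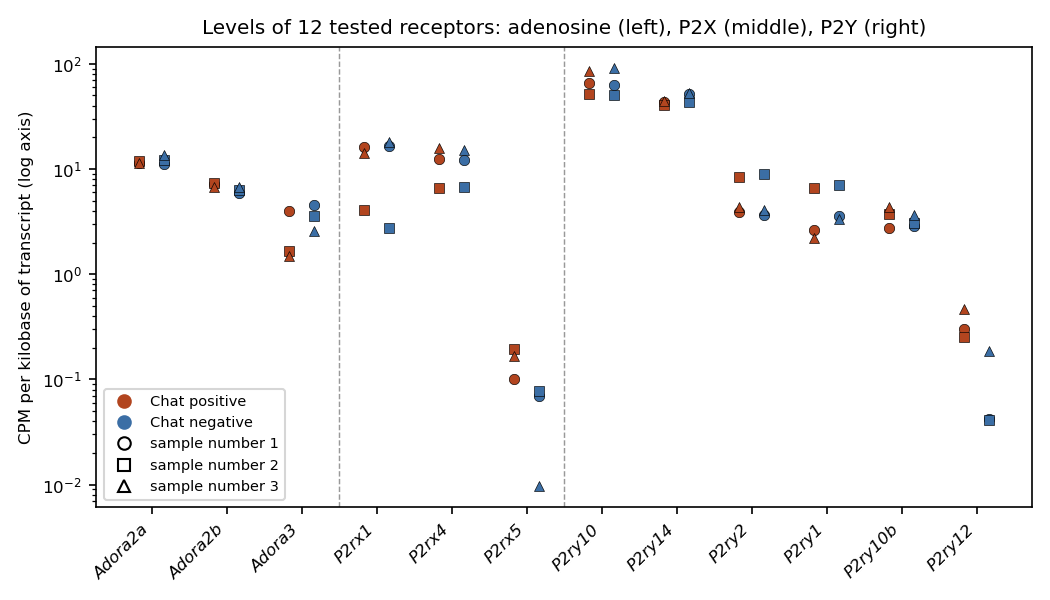
CPM per kilobase of transcript, on a log axis, for the 12 tested adenosine, P2X and P2Y receptors, with the Chat positive libraries left of the Chat negative ones and a symbol for each sample number. P2ry10 and P2ry14 stand highest, and P2rx5 and P2ry12 are the low receptors whose gates do not overlap.

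Of the 9 listed P2Y genes 6 were tested and none passed, with a median log2 change of -0.018. P2ry10, which answers to a lysophospholipid in spite of its name, was the most abundant, at 193 ± 48.5 CPM in Chat positive and 196 ± 61.1 CPM in Chat negative cells (SD, n = 3 each). P2ry2, a receptor for ATP and UTP, ran with P2ry1. It stood at 11.8, 25.0 and 13.2 CPM in Chat positive samples, against 10.99, 27.3 and 12.3 CPM in Chat negative samples. P2ry12, another ADP receptor, had 25, 29 and 42 counts in Chat positive samples, against 4, 4 and 18 counts in Chat negative samples. Its gates did not overlap, its unadjusted p was 0.031 and its adjusted p was 1.00 in edgeR. P2ry4, P2ry6 and P2ry13 had at most 27 counts in a library.

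By sample number, most members showed 1 of 2 opposed patterns. Both number 2 libraries lay below the other 4 for 4 members, Entpd1, Nt5e, P2rx4 and P2ry14, as for 23.4% of all tested genes. For P2ry14 the margin was slight, with 108.2 CPM in Chat negative sample 2 and 108.3 CPM in Chat positive sample 1. Both number 2 libraries lay above the other 4 for 3 members, Ada, Pnp and P2ry1, as for 26.3% of all tested genes. Xdh and Adora2a lay between. Over the 36 pairs of tested members, Nt5e and P2rx4 had a Pearson's r of 0.969 and Ada and P2ry1 one of 0.962, while P2rx4 and P2ry1 had one of -0.942, each over 6 libraries that share the same number 2 step. Of the 16 tested de novo synthesis genes, 12 were highest in both number 2 libraries and 2 were lowest. Paics, a bifunctional enzyme of that pathway, averaged 226 CPM in the number 2 libraries, against 167 CPM in the other 4. The median share of the sum of squares held by the sample number was 83.6% over the 9 members, against 67.1% over all tested genes, and these groups were not tested against each other.

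**Figure D4:**
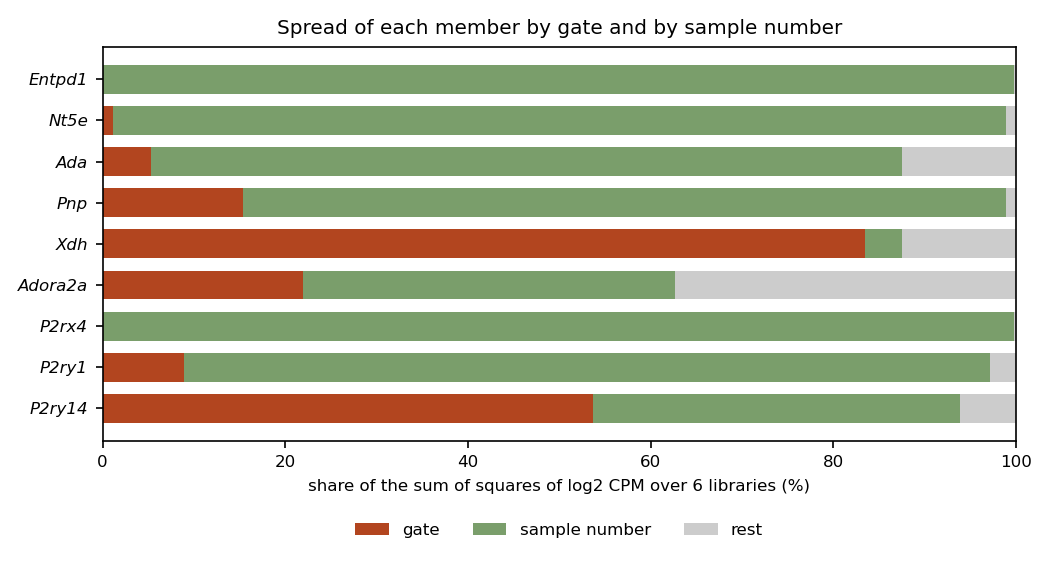
Bars give, for each of the 9 tested members, the share (%) of the sum of squares of log2 CPM over the 6 libraries that lies between the gates, between the sample numbers and in the rest. The gate takes 83.5% for Xdh and 53.7% for P2ry14, and the sample number 97.8% to 99.8% for Entpd1, Nt5e and P2rx4.

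The genes most like each of these members over the 6 libraries had still higher correlations, as many genes take the same step. For Nt5e they were Coro1b, Jag2 and Saraf (Pearson's r 0.998 each). For Entpd1 they were Peg13, Nudt19 and H2-Q6, for P2rx4 Tpd52, Cox7a2l and Cd63, and for P2ry1 Tmem154, Pdgfrb and Pprc1, all with r of at least 0.997.

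Promoter sequence is shown for 4 of the members that took this step, so that what their starts share can be read. They are Nt5e, Entpd1 and P2rx4 with low values and P2ry1 with high values in number 2. Ada, Pnp and P2ry14 also took the step, and their windows are not printed. Each line holds the 250 bases before a transcript start in the RefSeq promoter table (GRCm38.p6), 5′ to 3′ on the gene's own strand, which is the plus strand for all 4. For P2rx4 that start lies inside the gene's span, so the end of its window passes the gene start given above. Entpd1 has 2 windows in the table, and the one at the gene start is shown. Capitals mark GC boxes (GGGCGG on either strand), which overlap one another in Nt5e. The windows lie at chr9:88327359-88327608, chr19:40612116-40612365, chr5:122707294-122707543 and chr3:61002535-61002784 in the order below.
Nt5e: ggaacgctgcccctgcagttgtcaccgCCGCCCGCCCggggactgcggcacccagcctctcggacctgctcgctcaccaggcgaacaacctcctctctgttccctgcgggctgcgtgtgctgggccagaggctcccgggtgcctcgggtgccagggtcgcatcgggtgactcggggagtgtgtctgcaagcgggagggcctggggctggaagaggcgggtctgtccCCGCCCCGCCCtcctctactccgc
Entpd1: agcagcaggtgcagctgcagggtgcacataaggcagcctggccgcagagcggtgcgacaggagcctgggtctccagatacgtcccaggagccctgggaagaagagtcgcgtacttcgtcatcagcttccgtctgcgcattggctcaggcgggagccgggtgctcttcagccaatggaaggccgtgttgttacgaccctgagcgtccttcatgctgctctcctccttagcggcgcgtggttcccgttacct
P2rx4: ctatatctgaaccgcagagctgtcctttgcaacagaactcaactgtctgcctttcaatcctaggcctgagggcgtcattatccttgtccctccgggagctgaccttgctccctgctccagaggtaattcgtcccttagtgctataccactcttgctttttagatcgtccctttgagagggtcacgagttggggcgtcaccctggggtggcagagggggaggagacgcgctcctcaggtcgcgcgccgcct
P2ry1: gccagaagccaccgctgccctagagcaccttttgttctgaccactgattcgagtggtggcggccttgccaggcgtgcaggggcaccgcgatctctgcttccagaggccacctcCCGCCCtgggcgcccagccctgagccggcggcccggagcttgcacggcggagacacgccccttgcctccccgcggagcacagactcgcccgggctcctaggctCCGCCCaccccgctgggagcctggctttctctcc

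Nt5e holds 4 GC boxes and P2ry1 holds 2, and the windows of Entpd1 and P2rx4 hold none. A GC box occurs in 32.7% of the 32851 windows of the same length. None of the 4 holds a GATA site, an E-box or a cyclic AMP response element on either strand. The GATA site was searched as AGATAA or as the variant AGATAG, and also as TGATAA or as its variant TGATAG, and is in 26.5% of windows. The E-box was searched as CACGTG (6.02% of windows) and the response element as TGACGTCA (1.55% of windows). The shares of G and C are 72.0% for Nt5e, 62.4% for Entpd1, 57.2% for P2rx4 and 70.8% for P2ry1, against a median of 52.4% over all windows. The second Entpd1 window, at chr19:40659520-40659769, has 47.2% G and C and holds none of these motifs. Of the 10 members 8 have a window in the RefSeq table, and among the others a GATA site is found in a window of Pnp, of P2rx7 and of P2ry14. Pnp and P2ry14 took the number 2 step too, so the lack of GATA sites does not hold for all members with that step. GC boxes are also found in windows of Ada, Pnp and P2rx7. These matches describe letters in the windows, and which start is used by these cells was not measured.

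Transport and release of nucleotides showed no call. Of 7 listed nucleoside transporters 5 were tested, with a median log2 change of -0.093. Slc29a1, the main equilibrative carrier of adenosine, stood at 95.6 ± 22.5 CPM in Chat positive and 100.2 ± 18.4 CPM in Chat negative cells (SD, n = 3 each). Slc29a3, a lysosomal carrier, stood at 10.7 ± 2.13 CPM in Chat positive and 14.01 ± 0.992 CPM in Chat negative cells, with no overlap. Of 12 listed ATP release genes 7 were tested, 2 above 0 and 5 below, with a median of -0.23. The ATP-permeable channel gene Panx1 stood at 77.9 ± 11.1 CPM in Chat positive and 73.9 ± 8.54 CPM in Chat negative cells. The lipid scramblase and ion channel gene Ano6 stood at 98.4 ± 17.5 CPM in Chat positive and 115 ± 24.0 CPM in Chat negative cells.

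Genes downstream of P2X7 in macrophages were present although P2rx7 was almost uncounted. Of 9 listed inflammasome and IL-1 family genes 6 were tested and none passed, with 5 above 0 and a median log2 change of 0.17. Nlrp3, the inflammasome sensor, stood at 9.03, 8.64 and 6.93 CPM in Chat positive samples, against 5.08, 6.18 and 5.14 CPM in Chat negative samples. Every Chat positive library lay above every Chat negative library. The log2 change of Nlrp3 was 0.58 (SE 0.20). It did not pass in edgeR (adjusted p = 1.00), and its unadjusted p was 0.021. The adaptor Pycard stood at 102 ± 11.8 CPM in Chat positive and 84.4 ± 7.45 CPM in Chat negative cells (SD, n = 3 each). The most abundant gene of the list, Nek7, stood at 717 ± 86.6 CPM in Chat positive and 713 ± 61.65 CPM in Chat negative cells. Il1b, Il1a and Il18 had at most 5 counts in a library. Il33 was counted in every library, at 7.86, 2.49 and 12.9 CPM in Chat positive samples, against 5.91, 1.20 and 13.1 CPM in Chat negative samples.

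Over all pathway lists, members included, 86 of 120 listed genes were tested and none passed. Of these 40 lay above 0 and 46 below, with a median log2 change of -0.020. No overlap between the gates was found for 9 of the 86, 5 higher and 4 lower in Chat positive cells, beside 8.14% of all tested genes. An unadjusted p under 0.05 was reached by 3 of the 86, Xdh, Nlrp3 and P2ry12, beside 2.43% of all tested genes. With the sample number as a replicate block edgeR called 44 of 12967 genes, or 0.339%, and none of the 86.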

How the data were processed

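The authors deposited unnormalised counts of reads, 1 row for each Entrez gene ID, for 6 libraries made with a SMARTer kit for low input, per the labels. The values are whole numbers with unequal column sums. Per the submitters' processing notes, mm10, STAR 2.3.0 and CASAVA 1.8.2 were used. Which program counted the reads, and whether by strand, is not given in the sources used here. Symbols and coordinates came from RefSeq on GRCm38.p6, the assembly of mm10, for 25275 IDs. Exon overlaps and transcript lengths came from GENCODE vM21 of the same assembly.

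Genes passing edgeR's filterByExpr (12967) were fitted with TMM scaling and tested with edgeR's robust quasi-likelihood F-test (two-sided), adjusted by Benjamini-Hochberg across these genes at 5%. SE is the size that the F statistic implies and intervals use its degrees of freedom. CPM are counts over TMM-scaled totals, and log2 CPM for sums of squares and correlations use a prior count of 2. R 4.3.3, edgeR 4.0.16, limma 3.58.1 and DESeq2 1.42.0 were used. Libraries of 1 gate differed by far more than sampling noise, with chi-square over degrees of freedom of 31.4 or more, and each counts as 1 sample. Intervals and floors from counts cover counting error only.

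Deviations from the gate means correlated across genes at 0.29, 0.67 and 0.43 for samples with the same number 1, 2 and 3, each over 0.1, so the number served as a block in an alternative. Chat positive 3 with Chat negative 1 gave 0.30 and Chat positive 1 with Chat negative 3 gave 0.20, so this measure sets number 2 apart but does not tell numbers 1 and 3 apart. The pairing comes from the data, not from a label. Other alternatives were RLE, upper-quartile and library-total scaling, the filter dropped or set to 5 CPM in 3 libraries, DESeq2 and limma-voom with and without the block, no robust dispersions, and leaving out each library. Leaving out both libraries of a number was added after the data were seen. The members and lists were chosen with earlier results of these data known. Beside the members, most genes named were drawn from each list by the smallest p or the highest CPM, up to 4 and 2. Others were the 3 tested genes with a symbol that were most like a member in log2 CPM. Not every gene so drawn is described. Calhm2, with the smallest p of the ATP release list, and Impdh1, the most abundant of de novo synthesis, are examples. Genes such as P2ry2, Ak3, Uox, Paics and those near 0 counts were named after their values were seen.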

Additional observations from a re-analysis of the deposited data

How the results depend on the processing

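No member and, with 1 exception, no listed pathway gene with an adjusted p was called under any of the 20 alternatives. The exception was DESeq2 with the replicate block, which called 2 pathway genes, Pycard (log2 change 0.26, adjusted p = 0.025) and Ano6 (-0.23, adjusted p = 0.038). Over all genes the count of calls was 1 in edgeR, 44 with the replicate block, 4 with DESeq2, 476 with DESeq2 and the replicate block, 1 with limma-voom both with and without the replicate block, 0 to 1 when single libraries were left out (0 without sample 1 or 3 of either gate), and 0, 2 and 0 without both libraries of number 1, 2 and 3. The cause was not tested. With the replicate block in edgeR, the log2 change of Xdh was -1.13 with an adjusted p of 0.102. Over its 19 alternatives (the stricter filter leaves it out) the log2 change of Xdh lay between -1.41 and -0.92, and its adjusted p between 0.102 and 1.00. DESeq2 with the replicate block gave Xdh no adjusted p (its unadjusted p was 0.00025), so there it could not be called; without single libraries the change lay between -1.29 and -0.99. The changes of Xdh, Pnp, Adora2a and P2ry14 kept their sign in every alternative that gave them a value, and those of P2ry14 lay between -0.30 and -0.16. The adjusted p of P2ry14 was 0.157 with the replicate block in edgeR and 0.074 in DESeq2 with the replicate block. The latter was the smallest adjusted p that any member was given. The sign of small changes turned for others. With limma-voom P2rx4 stood at -0.0030, and without both number 3 libraries Ada stood at 0.0019. When single libraries were left out, the log2 change ranged from -0.26 to 0.32 for P2rx4, -0.37 to 0.29 for Entpd1, -0.61 to 0.14 for Nt5e, -0.18 to 0.0050 for Ada and -0.94 to 0.15 for P2ry1. Without the block the 95% intervals of Entpd1, Nt5e and P2ry1 reached beyond 2-fold. With the replicate block in edgeR the SE was 0.094 for Entpd1, 0.12 for Nt5e and 0.13 for P2ry1, against 0.47, 0.55 and 0.48 without it, and the adjusted p of P2ry1 was 0.212.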
